A study of Mus musculus with 18 samples.

Results

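Beta cells from mice made insulin resistant by a gene deletion were set directly against beta cells from control mice on a different diet. LIRKO chow, with 4 RNA-seq libraries, came from mice that lack the insulin receptor in the liver and were kept on chow. Ctrl HFD, with 5 libraries, came from control mice given HFD, taken here to be a high-fat diet. These were chosen by group label alone and make up 9 of the 18 libraries of the series. The other 9, 3 of LIRKO HFD and 6 of Ctrl chow, entered the same fit and are given for reference. The comparison covers 19284 genes that passed a filter on low counts.

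Genotype and diet both differ between LIRKO chow and Ctrl HFD, so the effects of the deletion and of the diet cannot be told apart here. The labels name neither the Cre driver of the deletion nor the age, sex, length of feeding or composition of the diets. They do not say which libraries came from separate animals, so a p-value here is measured against library spread, part of which may be technical. Islets were isolated, cultured overnight and dispersed, and beta cells were sorted on forward scatter and endogenous fluorescence.

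The insulin receptor in the liver restrains glucose output, and mice without it have high circulating insulin and a large expansion of beta cells. High-fat feeding also produces insulin resistance and beta-cell growth, more slowly and with excess lipid. Beta cells under a high demand for insulin load their endoplasmic reticulum (ER) with proinsulin, and they answer with folding enzymes and chaperones driven by ATF6 and XBP1 and with the amino acid response driven by ATF4.

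Libraries held 37138131 to 51714775 counts in LIRKO chow and 19490235 to 35281010 in Ctrl HFD. Ins1 and Ins2, the mouse insulin genes, took 14.3% to 16.9% of the counts in LIRKO chow and 8.97% to 18.7% in Ctrl HFD. Ctrl HFD replicates 1 and 2 stood apart. They had the lowest totals of the series, 1.37% and 1.06% of their counts on the nuclear RNA Malat1, against at most 0.6% in the other libraries, and the smallest shares of protein-coding counts. A repeat without them, 4 against 3 libraries, is therefore given beside the main results. In LIRKO chow, replicates 1 and 2 resembled each other more than any other libraries of 1 group did, as did 3 and 4. The scaled median absolute deviation of the log2 ratio was 0.0882 and 0.103 in these pairs, and 0.17 or more in the others. Between the 2 libraries of a pair, 22.2% and 26% of genes differed beyond the point that counting noise alone passes for 5% of genes, an excess that separate preparations of 1 source can also give. Whether a pair is 1 source cannot be told from these data. The 4 were counted as the labels list them, and lead counts are also given with each pair summed.

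In the full comparison 2084 of 19284 genes (10.8%) passed an adjusted p of 0.05 in edgeR's quasi-likelihood test, with 996 higher (5.16%) and 1088 lower (5.64%) in LIRKO chow. Upper quartile scaling gave 930 higher and 1786 lower. Below, a rise or fall without another group named is of LIRKO chow relative to Ctrl HFD. The repeat called 649 of 18941 genes (3.43%), 343 higher (1.81%) and 306 lower (1.62%). Called in both in the same direction were 559 genes (2.90%), 303 higher (1.57%) and 256 lower (1.33%). These were 26.8% of the genes of the full comparison and 86.1% of those of the repeat. With each LIRKO chow pair summed to 1 library, 60 genes were called, 53 higher and 7 lower, all of them among the 559. With the pairs summed and the repeat's libraries, 12 were called, 11 higher and 1 lower. Single libraries moved the count as well. It was 595, 577, 856 and 915 without LIRKO chow replicates 1, 2, 3 and 4 in turn, 878 and 837 without Ctrl HFD replicates 1 and 2, and 4203 and 3862 without Ctrl HFD replicates 3 and 4.

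Most of the genes that rose in both comparisons also lay above the libraries outside the contrast. Over all genes tested, the 4 LIRKO chow libraries were all above the 5 of Ctrl HFD for 10.9% and all below for 7.32%. Of the 303 genes higher in both comparisons, 189 (62.4%) had all 4 LIRKO chow libraries above all 14 others, LIRKO HFD and Ctrl chow included. Over all genes tested this held for 2.43%. Another 68 of the 303 overlapped with Ctrl chow alone and 33 with LIRKO HFD alone. Of the 256 genes lower in both, 73 (28.5%) lay below all 14 other libraries, against 0.887% of all genes tested, and 96 overlapped with Ctrl chow alone. These genes were called because LIRKO chow was high or low against Ctrl HFD, which by itself places LIRKO chow toward one end of all libraries, so the shares describe the called genes and carry no test.

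Etv5, an ETS transcription factor induced by receptor tyrosine kinase and ERK signalling, was the gene with the smallest p. Etv5 (chromosome 16, 22381309 to 22439719 on GRCm38) had 19.3, 20.8, 24.1 and 24.0 counts per 1000000 scaled reads (CPM) in LIRKO chow, against 4.67, 3.82, 5.33, 4.91 and 5.28 CPM in Ctrl HFD. All 4 LIRKO chow libraries lay far above all 5 Ctrl HFD libraries, which varied little among themselves. The log2 change was 2.19 ± 0.17 (SE; adjusted p = 1.94e-06), a 4.58-fold difference. It was 2.08 in the repeat (adjusted p = 7.88e-05). LIRKO HFD libraries had 4.01, 4.60 and 4.44 CPM and Ctrl chow libraries 4.35 to 8.01 CPM (median 6.45), so neither group reached the LIRKO chow level.

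Dusp4, a phosphatase that removes the activating phosphates from ERK, had 56.8, 58.5, 72.0 and 72.5 CPM in LIRKO chow, against 7.45, 7.73, 12.8, 27.3 and 7.82 CPM in Ctrl HFD. The groups did not overlap, and Ctrl HFD replicate 4 was the closest to LIRKO chow. The log2 change was 2.36 ± 0.36 (adjusted p = 0.0016) and 2.02 in the repeat (adjusted p = 0.0114). Spry4, a Sprouty inhibitor of the same pathway, had 6.07, 5.01, 8.67 and 7.71 CPM in LIRKO chow, against 2.48, 3.54, 3.02, 4.25 and 2.51 CPM in Ctrl HFD. It too showed no overlap (log2 1.12 ± 0.22, adjusted p = 0.00624; repeat 1.07). In a list of 16 genes of ERK feedback and ETS factors, all tested, 8 rose and none fell, 6 of them in both comparisons. The share that rose was 50%, against 5.16% of all genes tested. The list's median log2 change was 0.52, and 0.51 in the repeat, against -0.06 and -0.02 over all genes tested. The other members called were the Sprouty relatives Spred2 (1.27), Spry2 (0.74) and Spred3 (0.59), the ETS factor Etv1 (0.60) and cyclin D1, Ccnd1 (0.91). Spry2 and Spred3 were not called in the repeat.

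**Figure D1:**
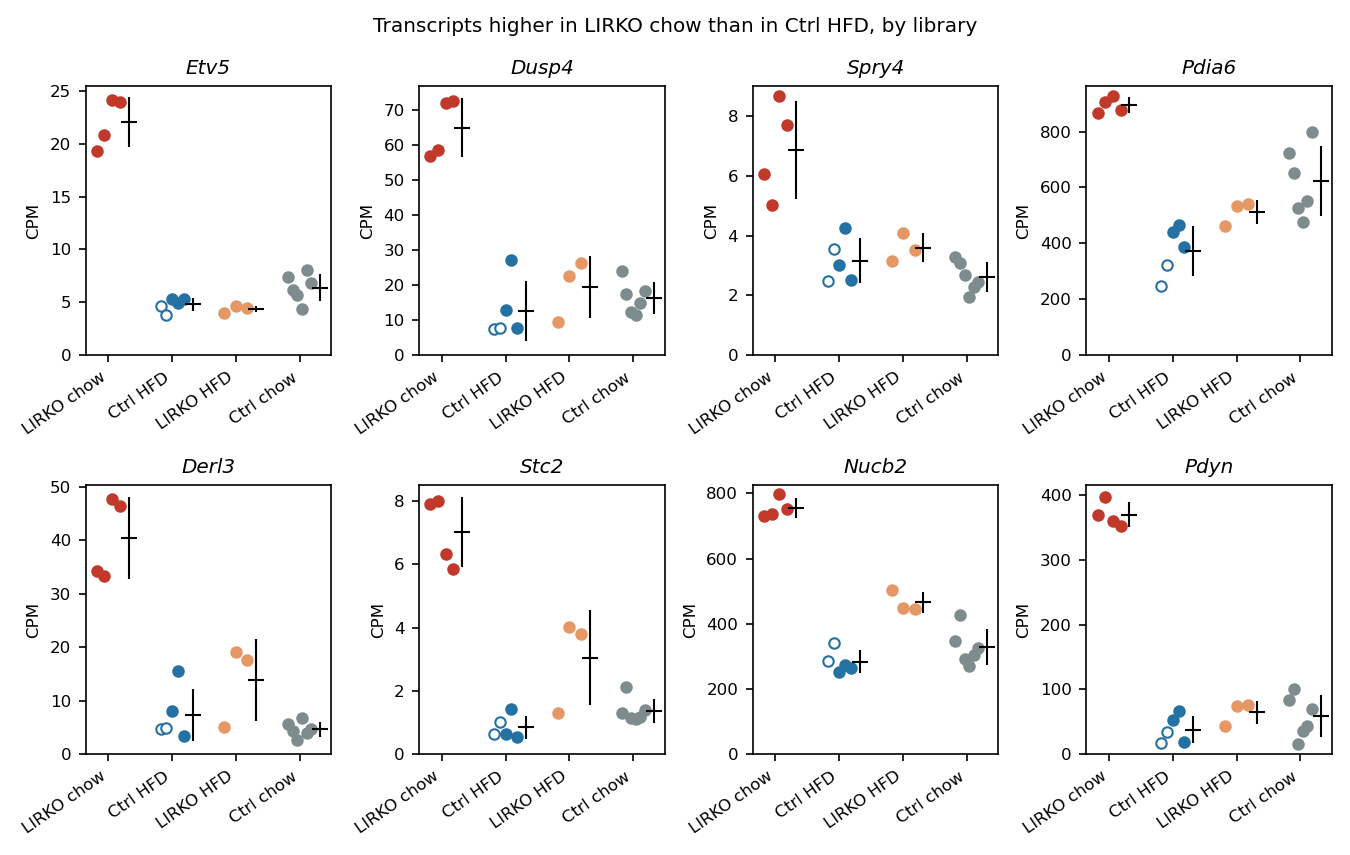
Each panel plots 1 transcript in CPM, with 1 point per library in LIRKO chow, Ctrl HFD, LIRKO HFD and Ctrl chow and the group mean ± SD beside them. Open points are Ctrl HFD replicates 1 and 2. For all 8 transcripts the LIRKO chow libraries lie above every Ctrl HFD library, and Etv5 and Pdyn are in the range of the control groups in LIRKO HFD.

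Genes for protein folding in the ER were higher together in LIRKO chow than in Ctrl HFD. Of 36 members of the list of ER chaperones and folding, all tested, 23 rose (63.9%, against 5.16% of all genes tested) and none fell, and 12 of them rose in both comparisons. The median log2 change was 0.68, and 0.56 in the repeat. Against Ctrl chow the list median was 0.36 for LIRKO chow and -0.36 for Ctrl HFD (-0.21 in the repeat). With the LIRKO chow pairs summed, 3 members were called and the median was 0.69. Many genes of this class carry the ER stress element in their promoter, the site at which ATF6 acts together with NF-Y. Its letters are CCAAT and CCACG with any 9 bases between them. RefSeq promoter sequences on GRCm38.p6, 250 bases before to 50 after a start site, were found for 31 members. Of the 31, 9 held the element (29.0%) on either strand. It was in 37 of 27025 genes with a promoter (0.137%), and in 21 of the 12620 of them that were tested (0.166%). The promoters of 4 of the members that rose in both comparisons are shown, 5′ to 3′ along the gene, with the matches in capitals.
Derl3, chr10:75893148-75893447, plus strand: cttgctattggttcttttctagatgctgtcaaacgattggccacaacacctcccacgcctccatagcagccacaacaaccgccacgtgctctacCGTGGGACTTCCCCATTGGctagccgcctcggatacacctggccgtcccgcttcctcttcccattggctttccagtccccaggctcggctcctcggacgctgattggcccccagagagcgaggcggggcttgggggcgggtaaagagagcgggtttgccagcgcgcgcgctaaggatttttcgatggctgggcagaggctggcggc
Pdia6, chr12:17266339-17266638, plus strand: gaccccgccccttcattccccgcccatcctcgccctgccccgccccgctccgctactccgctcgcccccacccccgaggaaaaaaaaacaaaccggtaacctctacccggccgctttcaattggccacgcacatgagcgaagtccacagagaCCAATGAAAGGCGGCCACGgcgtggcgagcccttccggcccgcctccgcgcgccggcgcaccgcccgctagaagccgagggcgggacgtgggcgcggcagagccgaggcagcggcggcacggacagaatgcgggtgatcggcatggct
Creld2, chr15:88819396-88819695, plus strand: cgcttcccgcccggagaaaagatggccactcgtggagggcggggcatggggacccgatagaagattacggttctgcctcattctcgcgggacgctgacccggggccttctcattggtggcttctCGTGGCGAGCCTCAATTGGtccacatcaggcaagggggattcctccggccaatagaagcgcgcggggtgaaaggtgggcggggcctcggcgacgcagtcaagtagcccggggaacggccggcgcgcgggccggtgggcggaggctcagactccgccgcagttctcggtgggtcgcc
Hsp90b1, chr10:86705395-86705694, minus strand: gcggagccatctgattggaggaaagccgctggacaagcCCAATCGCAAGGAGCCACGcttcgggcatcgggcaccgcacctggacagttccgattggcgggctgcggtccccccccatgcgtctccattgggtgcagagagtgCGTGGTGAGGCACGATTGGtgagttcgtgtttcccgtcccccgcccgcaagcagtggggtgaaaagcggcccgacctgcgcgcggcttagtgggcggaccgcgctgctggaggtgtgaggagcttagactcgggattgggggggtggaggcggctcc

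Derl3 and Creld2 match on the opposite strand, Pdia6 on the gene's own strand, and Hsp90b1 has a match on each. All 9 members with the element were tested, and 7 rose: these 4, Hspa5, Calr and Dnajc3. Canx (log2 0.52, adjusted p = 0.051) and Syvn1 (0.33, adjusted p = 0.114) did not pass. Of the 12 other tested genes with the element in a promoter, 1 rose, Ero1lb, the beta cell's ER oxidase (0.64, adjusted p = 0.0465; not called in the repeat). The median of the 12 was -0.03, and of all 21 tested genes with the element 8 rose, 0 fell and the median was 0.33 (0.30 in the repeat). The list holds textbook ER genes, and the share with the element is a description of the list.

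Pdia6, a protein disulfide isomerase that acts on proinsulin, had 867, 906, 929 and 876 CPM in LIRKO chow, against 247, 324, 441, 465 and 388 CPM in Ctrl HFD. The LIRKO chow libraries were close to each other and above all Ctrl HFD libraries. The log2 change was 1.26 ± 0.18 (adjusted p = 0.000905), and 1.04 in the repeat (adjusted p = 0.00409). Derl3, a channel component for ER-associated degradation, had 34.2, 33.2, 47.6 and 46.3 CPM in LIRKO chow, against 4.72, 4.89, 8.02, 15.6 and 3.38 CPM in Ctrl HFD. It changed most in the list, by 2.46 ± 0.41 (adjusted p = 0.00291; repeat 2.16), again without overlap. Creld2, an ER isomerase, had 214, 227, 268 and 247 CPM in LIRKO chow, against 114, 133, 86.9, 131 and 89.3 CPM in Ctrl HFD (1.11 ± 0.19, adjusted p = 0.00318; repeat 1.21).

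Hsp90b1 (GRP94), the ER's HSP90, had 2460, 2490, 2880 and 2830 CPM in LIRKO chow, against 1180, 1260, 1470, 1710 and 1070 CPM in Ctrl HFD (0.99 ± 0.19, adjusted p = 0.00573; repeat 0.90). Hspa5 (BiP), the main ER chaperone, rose by 0.94 ± 0.21 (adjusted p = 0.0135) and lost its call in the repeat (0.69, adjusted p = 0.0688). Of the 4 Hspa5 values in LIRKO chow, 2710, 2900, 3140 and 3000 CPM, all lay above the 5 of Ctrl HFD, 964, 1230, 1780, 2260 and 1400 CPM. The chaperone partner Sdf2l1 (1.25), the ER-resident growth factor Manf (0.94), the disulfide isomerase P4hb (1.07) and the isomerase Fkbp11 (1.28) rose in both comparisons. With the LIRKO chow pairs summed, Fkbp11 was not called against all 5 Ctrl HFD libraries (1.30, adjusted p = 0.0898) and was called in the repeat (1.80, adjusted p = 0.0111). The transcript of the driver Xbp1 itself changed less (0.46, adjusted p = 0.0434, and 0.27 in the repeat, adjusted p = 0.223).

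ATF4, which governs the amino acid and integrated stress responses, was the next group whose target genes rose. Of 30 listed and tested, 15 rose (50%, against 5.16% of all genes tested) and none fell. In both comparisons 10 rose. The median log2 change was 0.60, and 0.56 in the repeat. Against Ctrl chow the list median was 0.35 for LIRKO chow and -0.27 for Ctrl HFD (-0.08 in the repeat). Stc2, a secreted glycoprotein that inhibits the protease PAPP-A, had 7.91, 8.01, 6.31 and 5.85 CPM in LIRKO chow, against 0.645, 1.02, 0.622, 1.42 and 0.555 CPM in Ctrl HFD. The groups were widely separated, with a log2 change of 3.04 ± 0.34 (adjusted p = 0.000188; repeat 3.02). Genes of serine and one-carbon synthesis were among the others that rose in both comparisons: Phgdh (1.06), Psph (1.06), Psat1 (0.90) and Mthfd2 (0.60). So did the eIF2α phosphatase subunit Ppp1r15a (1.09), the glutathione-degrading Chac1 (0.60), the mTORC1 inhibitor Ddit4 (0.92) and the low-abundance hormone Fgf21 (1.24). Over Ctrl chow, Phgdh, Psat1 and Mthfd2 were at 0.70, 0.12 and 0.07 in LIRKO chow. In Ctrl HFD they were at -0.36, -0.78 and -0.53.

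The ATF4-branch genes most tied to cell death did not pass the test. Ddit3 (CHOP) had 277, 288, 355 and 339 CPM in LIRKO chow, against 566, 564, 394, 240 and 391 CPM in Ctrl HFD, with Ctrl HFD replicates 1 and 2 the highest. Its log2 change was -0.45, with a 95% interval of -0.93 to 0.02 (adjusted p = 0.163; repeat -0.13). Trib3, a pseudokinase induced by CHOP, changed by 0.31, with an interval of 0.00 to 0.62 (adjusted p = 0.142; repeat 0.16). Atf4 itself changed by 0.24 (adjusted p = 0.187).

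The letters of a 9-base amino acid response element, TGATGCAAT, were found in the promoters of 2 of 25 ATF4 targets (8%), Nupr1 and Fgf21. They were in 0.222% of all genes with a promoter and 0.143% of those tested. Other motifs were searched on both strands in the same window. The ETS core CCGGAAG was in 0 of 10 ERK feedback genes (9.93% of all genes, 17.6% of those tested). The longer form of the sterol response element was in 0 of 18 cholesterol genes. Its core CACCCCAC, searched after that, was in 2 of 18 (3.3% of all genes, 3.87% of those tested). The cyclic AMP element TGACGTCA, which belongs to none of the 5 lists searched, was in 1 of 25 ATF4 targets and 2 of 31 mitotic genes. Its share was 2.03% of all genes and 3.42% of those tested.

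**Figure D2:**
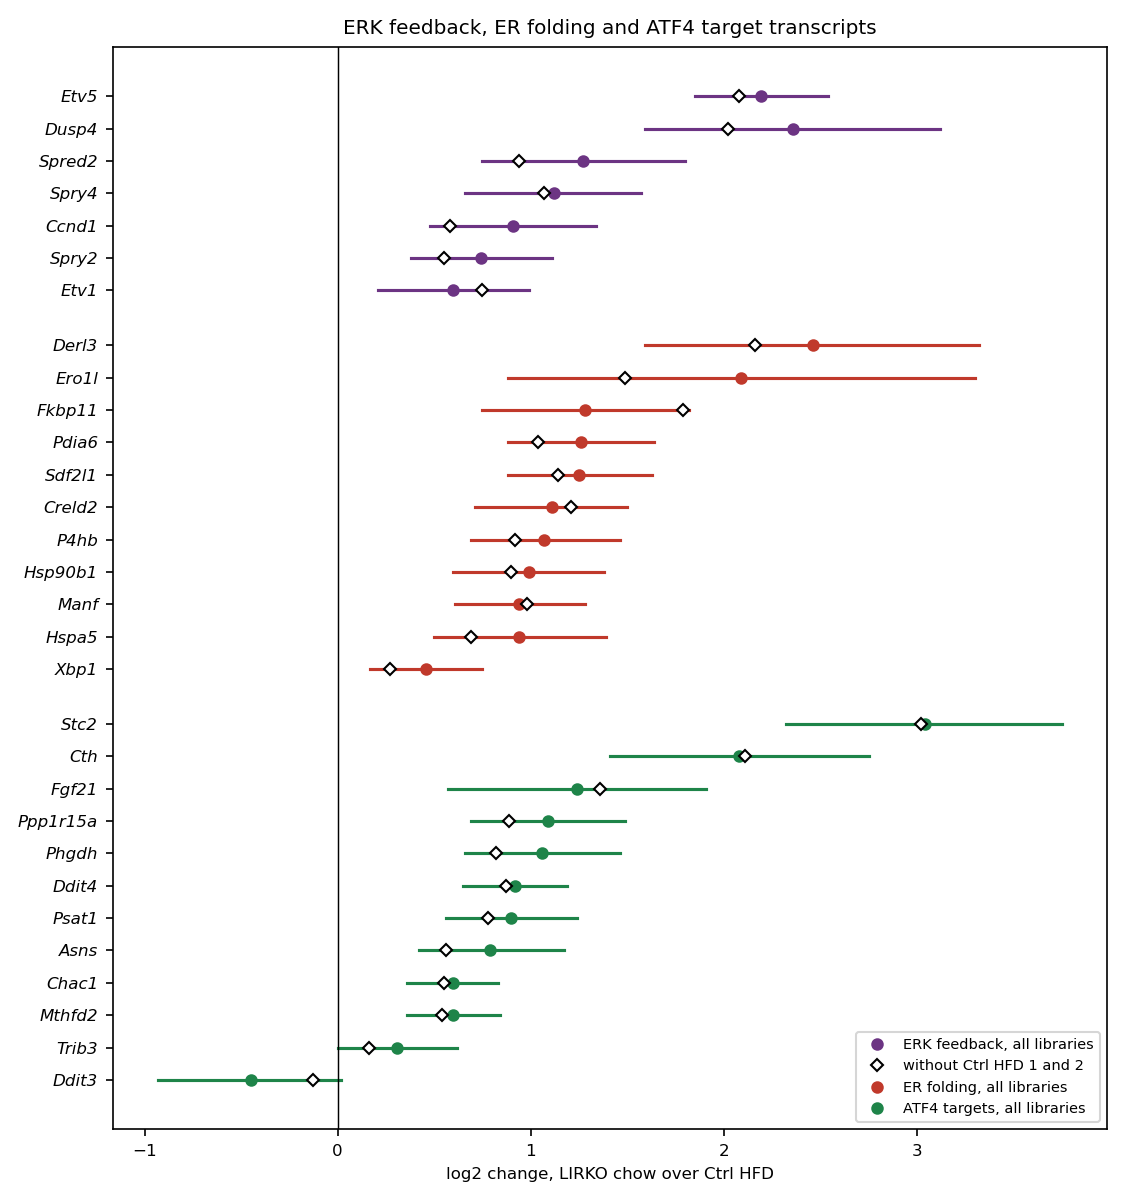
Log2 changes of LIRKO chow over Ctrl HFD for genes of ERK feedback (purple), ER folding (red) and the ATF4 response (green), with 95% intervals from the full comparison, and open diamonds for the repeat without Ctrl HFD replicates 1 and 2. All lie to the right of 0 except Ddit3, whose interval spans 0, and Trib3, whose interval begins at 0.

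The secretory cargo of the beta cell changed in part. Nucb2, the precursor of nesfatin, had 731, 737, 798 and 753 CPM in LIRKO chow, against 285, 342, 253, 272 and 265 CPM in Ctrl HFD. The lowest LIRKO chow library was above the highest Ctrl HFD library by more than the spread of either group (log2 1.41 ± 0.14, adjusted p = 4.18e-05; repeat 1.51). Pdyn, which encodes the opioid peptide precursor prodynorphin, had 370, 397, 361 and 353 CPM in LIRKO chow, against 17.9, 33.9, 53.0, 66.4 and 18.6 CPM in Ctrl HFD. It rose by 3.28 ± 0.46 (adjusted p = 0.00082; repeat 3.0), a 9.74-fold difference with no overlap.

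The granins of the secretory granule did not move as 1 family. Chgb rose by 0.99 ± 0.17 (adjusted p = 0.0036), Scg2 by 1.17 ± 0.23 (adjusted p = 0.00603) and Scg3 by 0.81 ± 0.13 (adjusted p = 0.0016), and all of them again in the repeat (0.98, 0.86 and 0.67). Scg2 had 11100, 11800, 11300 and 11100 CPM in LIRKO chow, against 2920, 3540, 6340, 6270 and 5990 CPM in Ctrl HFD. Here Ctrl HFD replicates 1 and 2 were the lowest, and its change was smaller in the repeat. Chga did not pass (-0.09, 95% interval -0.42 to 0.23; repeat -0.25). Vgf, a granin-like peptide precursor, rose by 1.84 (adjusted p = 0.00598; repeat 1.47). The prohormone convertase Pcsk1 rose by 1.39 (adjusted p = 0.0217) but not in the repeat (0.94, adjusted p = 0.0771).

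Syt5, a calcium sensor of granule exocytosis, had 53.0, 59.2, 43.1 and 40.5 CPM in LIRKO chow, against 16.4, 26.4, 18.3, 23.2 and 19.1 CPM in Ctrl HFD (1.24 ± 0.17, adjusted p = 0.000592; repeat 1.27). Stx1a, a SNARE protein of the plasma membrane, went the other way, with 9.48, 9.30, 10.1 and 9.74 CPM in LIRKO chow, against 15.0, 15.0, 14.4, 16.6 and 13.6 CPM in Ctrl HFD. Both separated the groups without overlap, and the fall of Stx1a was -0.63 ± 0.13 (adjusted p = 0.00962; repeat -0.63).

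Of 40 genes of beta-cell identity and secretion, all tested, 9 rose and 2 fell, 4 and 1 of them in both comparisons, with a median of -0.02. The share called was 27.5%, against 10.8% of all genes tested. The core of the list did not pass. Ins1 had 52400, 55400, 44800 and 42100 CPM in LIRKO chow, against 51700, 44400, 20000, 25700 and 29900 CPM in Ctrl HFD. The groups overlapped through Ctrl HFD replicates 1 and 2 (log2 0.50, 95% interval -0.07 to 1.08). In the repeat its change was 0.94 (adjusted p = 0.0604). Ins2 (0.27, interval -0.27 to 0.81; repeat 0.59), Pdx1 (-0.35, interval -0.72 to 0.02; repeat -0.27), Slc2a2 (-0.10, interval -0.88 to 0.67; repeat -0.32) and Glp1r (0.28, interval -0.81 to 1.37; repeat -0.32) did not pass either, and the width of these intervals leaves room for sizeable differences.

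Mafa, a maturity factor, differed between the LIRKO chow pairs: 37.6 and 45.9 CPM in replicates 1 and 2 and 16.4 and 14.9 CPM in replicates 3 and 4, against 6.95, 6.24, 22.1, 21.0 and 30.8 CPM in Ctrl HFD. The groups overlapped, and the log2 change of 0.71 had an interval of -0.25 to 1.67 (adjusted p = 0.274; repeat 0.21). Aldh1a3, an enzyme whose transcript marks failing beta cells, had 79.5, 82.1, 93.5 and 96.7 CPM in LIRKO chow, against 11.2, 18, 8.85, 24.3 and 13.9 CPM in Ctrl HFD. It rose by 2.53 ± 0.66 (adjusted p = 0.026), was not called in the repeat (2.48, adjusted p = 0.108), and was at 52.9, 44.4 and 54.8 CPM in LIRKO HFD and 1.14 to 21.1 CPM in Ctrl chow (median 1.82). Isl1, the islet homeobox gene, fell (-0.75, adjusted p = 0.0315) and lost its call in the repeat (-0.30, adjusted p = 0.233).

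Nkx6-1, a beta-cell homeobox factor, had 216, 237, 215 and 203 CPM in LIRKO chow, against 634, 712, 195, 232 and 259 CPM in Ctrl HFD. Apart from Ctrl HFD replicates 1 and 2 the groups overlapped (-0.90, adjusted p = 0.0646; repeat -0.08, adjusted p = 0.832). The maturity peptide Ucn3 did not pass either (-0.50, 95% interval -1.24 to 0.24; repeat -0.14). Ptprn, a membrane protein of the insulin granule, had 1120, 1150, 1130 and 1170 CPM in LIRKO chow, against 593, 680, 668, 837 and 653 CPM in Ctrl HFD, and rose in both comparisons without overlap (0.73 ± 0.14, adjusted p = 0.00625; repeat 0.66). G6pc2, which opposes glucokinase, rose in the full comparison alone (0.67, adjusted p = 0.0443; repeat 0.61, adjusted p = 0.162).

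The progenitor and dedifferentiation list had 14 tested members, of which 2 rose and 2 fell, 0 and 1 of them in both. The share called was 28.6%, against 10.8% of all genes tested. Hes1, a Notch target, had 6.39, 6.01, 5.59 and 5.60 CPM in LIRKO chow, against 14.6, 16.9, 9.62, 10.8 and 9.51 CPM in Ctrl HFD, and fell without overlap (-1.06 ± 0.20, adjusted p = 0.00593; repeat -0.77). Sox4 fell in the full comparison (-1.70, adjusted p = 0.0154), where Ctrl HFD replicates 1 and 2 were far the highest, and not in the repeat (-0.65, adjusted p = 0.0893). Npy, a neuropeptide of immature beta cells, had 1.05, 1.05, 1.14 and 1.32 CPM in LIRKO chow, against 0.397, 0.559, 0.414, 0.567 and 0.370 CPM in Ctrl HFD. It rose in the full comparison alone (1.30, adjusted p = 0.0287, and 1.33 in the repeat, adjusted p = 0.0877). Both groups lay below Ctrl chow, which had 1.67 to 6.71 CPM. Over Ctrl chow, Npy was at -2.07 in LIRKO chow and -3.38 in Ctrl HFD. LIRKO HFD was lowest, at 0.029 to 0.125 CPM. Of 24 genes normally silenced in beta cells, 1 fell (4.17%) and none rose, and that call was lost in the repeat.

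Mitotic genes were higher in LIRKO chow. Of 35 G2 and M phase genes listed, 34 were tested, and 15 rose (44.1%, against 5.16% of all genes tested) and none fell. In both comparisons 5 rose: Ccnb1, Tpx2, Nuf2, Ndc80 and Ect2. The median log2 change was 1.14, and 0.88 in the repeat. With the LIRKO chow pairs summed none was called (Ndc80 adjusted p = 0.0893, Mki67 adjusted p = 0.114), with a median of 1.15. Of 32 tested S phase genes, 4 rose (12.5%), none of them in both. Among 31 G2 and M phase genes with a RefSeq promoter, 22 (71%) held the letters TTTGAA on either strand, against 20.2% of all genes and 14.8% of those tested. These letters are the core of the cell cycle homology region, through which such genes are silenced outside mitosis. A match of 6 bases is frequent, and it is given as a description of the list. The promoters of Ndc80 and Top2a, 1 gene called in both comparisons and 1 called in the full comparison alone, are shown with the matches in capitals.
Ndc80, chr17:71526808-71527107, minus strand: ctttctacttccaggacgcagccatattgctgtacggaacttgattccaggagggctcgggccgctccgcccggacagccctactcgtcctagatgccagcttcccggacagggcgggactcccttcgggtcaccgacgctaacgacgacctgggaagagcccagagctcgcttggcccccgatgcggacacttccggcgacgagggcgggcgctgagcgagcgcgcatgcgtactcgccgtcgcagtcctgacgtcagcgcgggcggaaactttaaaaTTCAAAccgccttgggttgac
Top2a, chr11:99024140-99024439, minus strand: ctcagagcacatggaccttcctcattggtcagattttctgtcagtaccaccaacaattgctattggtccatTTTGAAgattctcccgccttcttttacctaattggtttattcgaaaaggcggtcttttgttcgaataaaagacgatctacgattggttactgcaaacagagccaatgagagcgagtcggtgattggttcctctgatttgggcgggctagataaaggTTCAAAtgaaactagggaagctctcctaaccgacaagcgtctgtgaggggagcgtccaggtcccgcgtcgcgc

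Ndc80, an outer kinetochore protein, had 2.11, 2.64, 1.94 and 1.89 CPM in LIRKO chow, against 0.745, 0.186, 0.503, 0.913 and 0.370 CPM in Ctrl HFD (1.97 ± 0.38, adjusted p = 0.00606; repeat 1.84). Top2a, the topoisomerase of dividing cells, had 13.3, 12.9, 12.2 and 12.7 CPM in LIRKO chow, against 2.53, 1.44, 1.84, 9.04 and 1.80 CPM in Ctrl HFD. In Top2a, Ctrl HFD replicate 4 lay apart from its group and near LIRKO chow, and the call was lost in the repeat (1.93, adjusted p = 0.0242, against 1.59, adjusted p = 0.131). Mki67, the proliferation antigen Ki-67, had 17.9, 16.9, 12.8 and 12.1 CPM in LIRKO chow, against 3.77, 3.12, 2.96, 9.79 and 3.65 CPM in Ctrl HFD (1.68 ± 0.36, adjusted p = 0.0111; repeat 1.45, adjusted p = 0.0688). All 3 genes separated the groups without overlap. LIRKO HFD libraries were at 2.90, 2.55 and 2.88 CPM for Mki67 and Ctrl chow libraries at 2.05 to 6.04 CPM (median 2.98).

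Of the cell cycle inhibitors, Cdkn1c (p57) fell, with 0.612, 0.948, 0.639 and 0.439 CPM in LIRKO chow, against 2.68, 3.07, 1.57, 1.26 and 1.98 CPM in Ctrl HFD. All LIRKO chow libraries were below all Ctrl HFD libraries (-1.67 ± 0.33, adjusted p = 0.00685; repeat -1.29). Cdkn1a (p21) did not pass (0.30, 95% interval -0.04 to 0.64; repeat 0.54, adjusted p = 0.0547), nor did cyclin D2, Ccnd2 (0.02, interval -0.32 to 0.36; repeat 0.29).

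Genes of insulin and IGF signalling moved in both directions, 5 of 34 tested up and 5 down, 3 and 3 of them in both comparisons. The share called was 29.4%, against 10.8% of all genes tested. Igf1r, the IGF1 receptor, had 704, 688, 520 and 522 CPM in LIRKO chow, against 325, 270, 372, 264 and 252 CPM in Ctrl HFD. It rose without overlap by 1.04 ± 0.19 (adjusted p = 0.00503; repeat 1.03). LIRKO HFD was lowest, at 120, 149 and 152 CPM, while Ctrl chow, at 331 to 726 CPM (median 548), overlapped with LIRKO chow. Insr, the beta cells' own insulin receptor, had 60.4, 58.1, 55.0 and 59.8 CPM in LIRKO chow, against 33.4, 35.8, 59.4, 57.2 and 63.5 CPM in Ctrl HFD, and did not pass (0.23, 95% interval -0.12 to 0.57; repeat -0.05). The deletion is in the liver, so Insr in these cells does not check the labels.

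Pappa2, a protease that frees IGFs from their binding proteins, rose with Stc2, which inhibits proteases of its family. Pappa2 had 316, 320, 339 and 374 CPM in LIRKO chow, against 33.3, 38.5, 73.0, 120 and 42.8 CPM in Ctrl HFD (2.45 ± 0.37, adjusted p = 0.00132; repeat 2.09). Irs2, the adaptor through which insulin and IGF1 act in beta cells, rose by 0.95 (adjusted p = 0.0336) but not in the repeat (0.66, adjusted p = 0.201). Igf2 fell, with 3.23, 4.04, 2.30 and 2.20 CPM in LIRKO chow, against 6.65, 5.68, 5.09, 8.60 and 7.08 CPM in Ctrl HFD (-1.17 ± 0.23, adjusted p = 0.00615; repeat -1.24). The IGF-binding protein gene Igfbp7 (-0.71) and the forkhead factor Foxo6 (-0.68) fell in both comparisons too.

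Cholesterol synthesis was the lipid pathway with the most rises. Of 27 members tested, 10 rose (37%, against 5.16% of all genes tested) and none fell. In both comparisons 5 rose: Fdft1, Insig1, Sqle, Idi1 and Sc5d. The list median was 0.47, and 0.40 in the repeat. With the LIRKO chow pairs summed none was called, with a median of 0.48. Against Ctrl chow the list median was 0.03 for LIRKO chow and -0.48 for Ctrl HFD. Sqle, squalene epoxidase, had 268, 304, 254 and 252 CPM in LIRKO chow, against 77.4, 76.3, 164, 161 and 140 CPM in Ctrl HFD (1.12 ± 0.23, adjusted p = 0.00822; repeat 0.79). Star, which carries cholesterol into mitochondria, had 142, 146, 117 and 115 CPM in LIRKO chow, against 16.5, 14.8, 42.6, 32.2 and 39.1 CPM in Ctrl HFD. It rose by 2.16 ± 0.35 (adjusted p = 0.00252; repeat 1.76). Neither gene showed overlap between the groups, and in both the replicates 1 and 2 of Ctrl HFD were lowest.

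Fatty acid genes changed less. Of 22 genes of fatty acid synthesis and desaturation tested, 6 rose and 1 fell, and Thrsp alone rose in both comparisons. The share called was 31.8%, against 10.8% of all genes tested. Thrsp, a lipogenic protein induced by carbohydrate, had 2.67, 2.77, 3.21 and 3.18 CPM in LIRKO chow, against 0.943, 2.33, 0.888, 1.10 and 0.951 CPM in Ctrl HFD (1.26, adjusted p = 0.0208; repeat 1.58). Of 24 genes of fatty acid oxidation, 2 rose (8.33%, against 5.16% of all genes tested), 1 of them in both. It was Slc25a20, the carnitine carrier, with 50.8, 54.8, 51.8 and 47.9 CPM in LIRKO chow, against 34.6, 36.5, 32.4, 37.3 and 35.4 CPM in Ctrl HFD. This difference was small but clear of the spread in both groups (0.54 ± 0.10, adjusted p = 0.00624; repeat 0.54). Lpl, lipoprotein lipase, fell in the full comparison (-0.67, adjusted p = 0.0435; repeat -0.51, adjusted p = 0.21). In its list of lipid uptake and storage, 1 of 22 rose and 2 fell (13.6%, against 10.8% of all genes tested), none in both.

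Fbp2, a gluconeogenic fructose bisphosphatase, had 38.4, 42.1, 45.9 and 44.4 CPM in LIRKO chow, against 3.82, 6.47, 6.16, 14.8 and 2.67 CPM in Ctrl HFD (2.65 ± 0.43, adjusted p = 0.00252; repeat 2.44). Of the 2 arrestin-like genes induced by glucose, Arrdc4 rose (1.20, adjusted p = 0.00751; repeat 0.94) and Txnip did not pass (-0.15, 95% interval -0.55 to 0.25; repeat -0.29). Mlxipl, which encodes the glucose-sensing factor ChREBP, had 291, 220, 356 and 379 CPM in LIRKO chow, against 1600, 1430, 485, 493 and 909 CPM in Ctrl HFD. It fell without overlap (-1.66, adjusted p = 0.0208), but Ctrl HFD replicates 1 and 2 were the highest and the call was lost in the repeat (-1.02, adjusted p = 0.152).

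In the list of hypoxia response and glycolysis, 10 of 29 tested members rose (34.5%, against 5.16% of all genes tested), but only Ddit4 in both comparisons. The median was 1.09, and 0.85 in the repeat. Bnip3, a mitophagy receptor induced by HIF1, had 390, 391, 418 and 413 CPM in LIRKO chow, against 16.5, 35.6, 141, 221 and 48.5 CPM in Ctrl HFD. The Ctrl HFD libraries spread more than 10-fold there, and the change of 2.12 (adjusted p = 0.0386) was 1.55 in the repeat (adjusted p = 0.16). Hmox1, haem oxygenase, rose in both comparisons (2.25, adjusted p = 0.011; repeat 1.71), as did Srxn1, which reactivates peroxiredoxins (0.95; repeat 0.96), and the ER peroxiredoxin Prdx4 (0.80; repeat 0.86). The metallothionein Mt1 fell (-1.07, adjusted p = 0.006; repeat -1.05). Fh1, fumarase, had 207, 215, 200 and 191 CPM in LIRKO chow, against 55.0, 61.9, 87.7, 84.2 and 85.7 CPM in Ctrl HFD (1.44 ± 0.18, adjusted p = 0.000416; repeat 1.23).

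Cytosolic ribosomal protein genes showed how far Ctrl HFD replicates 1 and 2 set some values. Of 70 tested none was called, and their median was -0.54 with those libraries and 0.11 without. The median over nuclear genes of oxidative phosphorylation was -0.32 with them and 0.07 without, with 2 of 71 called. No direction is given for either list.

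With the LIRKO chow pairs summed, few lists held calls: 3 genes each of ER folding and ATF4 targets, 2 each of ERK feedback and insulin and IGF signalling, 1 riser each of hypoxia response, glucose-responsive, activity-induced and antioxidant genes and alpha cell markers, and 1 gene lower each of activin, BMP and Id genes and of matrix genes. The other lists had none. Some genes are in more than 1 list. Stc2 counts under both ATF4 targets and insulin and IGF signalling, and Ddit4 under both ATF4 targets and hypoxia response.

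Lists with a small number of calls, or none, complete the account. Over all genes tested the share called was 10.8%. None of 30 interferon response and class I presentation genes, 7 mitochondrially encoded mRNAs, 9 nuclear and imprinted long noncoding RNAs, 7 delta cell markers and 2 erythrocyte markers was called in the full comparison. Of 19 clock genes 2 rose (10.5%), and Cry1, a clock repressor, did so in both comparisons (0.98; repeat 0.64). Of 13 genes of lactogenic and STAT5 signalling 3 fell (23.1%), none in both. Among 18 G1 cyclins and inhibitors, Ccnd1 rose and Cdkn1c fell (11.1% called). Duct markers had 2 of 13 higher (15.4%). PP cell markers had 2 higher and 1 lower of 8 (37.5%), with Pyy falling in the full comparison alone (-1.75, adjusted p = 0.0277; repeat -1.63, adjusted p = 0.0865). Schwann and neural markers had 1 higher and 1 lower of 4 (50%), mesothelial markers 1 higher of 3 (33.3%) and lymphocyte markers 1 lower of 3 (33.3%). With so few members tested, these last shares rest on 1 or 2 genes.

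**Figure D3:**
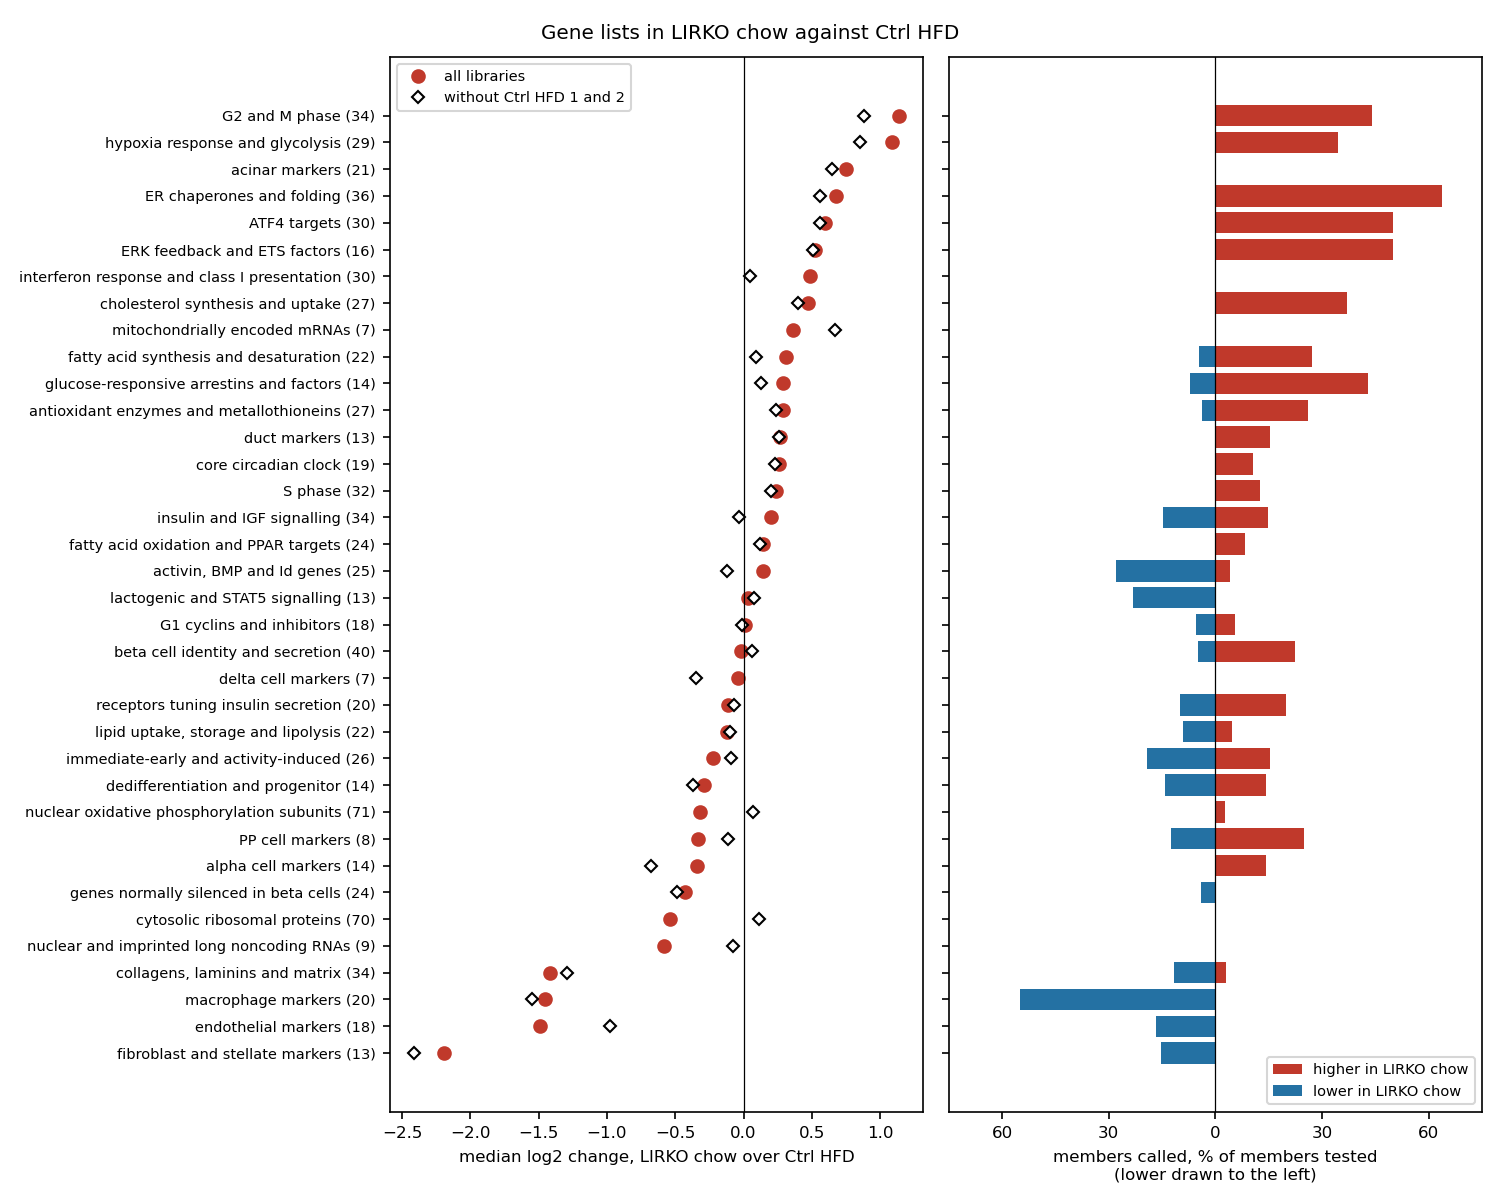
Left, the median log2 change of LIRKO chow over Ctrl HFD for each list with at least 7 tested members (number in brackets), with all libraries and in the repeat. Right, the percentage of tested members called higher (to the right) and lower (to the left) with all libraries. ER folding has the largest share called higher, macrophage markers the largest share called lower, and ribosomal proteins change sign between the 2 fits.

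Among the genes that fell were inhibitors of differentiation, which are targets of BMP signalling. Id3 had 1.42, 1.20, 3.17 and 2.44 CPM in LIRKO chow, against 13.0, 14.0, 11.2, 12.9 and 7.03 CPM in Ctrl HFD. The groups did not overlap (-2.49 ± 0.33, adjusted p = 0.00058; repeat -2.34). Id2 (-0.79; repeat -0.71) and the BMP-activated Smad9 (-2.21; repeat -2.58) fell in both comparisons, and Id1 (-1.87, adjusted p = 0.0361) in the full one. Of 25 genes of activin, BMP and Id signalling tested, 7 fell and 1 rose, 3 and 0 of them in both comparisons. The share called was 32%, against 10.8% of all genes tested. The list's median was 0.14, and -0.12 in the repeat, so most members did not share the fall of these.

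Activity-induced genes fell in part. Of 26 immediate-early and activity-induced genes tested, 5 fell and 4 rose, 5 and 1 of them in both comparisons. The share called was 34.6%, against 10.8% of all genes tested. Arc, a neuronal and beta-cell early gene, had 7.81, 7.33, 5.95 and 5.27 CPM in LIRKO chow, against 23.9, 25.5, 21.3, 29.7 and 24.5 CPM in Ctrl HFD. The separation was complete (-1.92 ± 0.32, adjusted p = 0.0031; repeat -1.94). The zinc finger factors Egr2 (-1.96), Egr3 (-2.21) and Egr4 (-2.97) and the early gene Ier2 (-1.51) were the others that fell. Crem, a cyclic AMP responsive repressor, rose, with 65.2, 61.7, 64.6 and 59.9 CPM in LIRKO chow, against 19.5, 23.4, 25.0, 30.4 and 19.6 CPM in Ctrl HFD (1.41 ± 0.22, adjusted p = 0.00148; repeat 1.32).

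Receptors that tune insulin secretion were divided. Oxtr, the oxytocin receptor, had 26.4, 29.0, 29.6 and 31.7 CPM in LIRKO chow, against 9.68, 11.5, 12.1, 19.2 and 10.7 CPM in Ctrl HFD (1.20 ± 0.21, adjusted p = 0.00336; repeat 1.05). Gcgr, the glucagon receptor, had 43.5, 37.9, 42.0 and 37.6 CPM in LIRKO chow, against 197, 220, 64.0, 76.5 and 97.7 CPM in Ctrl HFD (-1.70 ± 0.34, adjusted p = 0.00707; repeat -0.99). Both were without overlap, and for Gcgr the replicates 1 and 2 of Ctrl HFD were far the highest. In the list of 20 such receptors, 4 rose and 2 fell (30%, against 10.8% of all genes tested), 1 and 1 of them in both comparisons.

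Macrophage transcripts were lower in LIRKO chow. Of 20 markers tested, 11 fell (55%, against 5.64% of all genes tested) and none rose, 6 of them in both comparisons, with a median of -1.45, and -1.55 in the repeat. With the LIRKO chow pairs summed none was called (Lyz2 and Tyrobp both at adjusted p = 0.0893), with a median of -1.42. Against Ctrl chow the list median was -0.63 for LIRKO chow and 0.7 for Ctrl HFD. Lyz2, lysozyme, had 13.3, 8.68, 16.6 and 14.8 CPM in LIRKO chow, against 55.7, 39.1, 64.9, 59.9 and 28.2 CPM in Ctrl HFD (-1.89 ± 0.33, adjusted p = 0.00382; repeat -1.95). Tyrobp, a signalling adaptor of myeloid receptors, had 1.40, 1.25, 3.57 and 3.07 CPM in LIRKO chow, against 11.1, 10.0, 10.7, 11.1 and 5.41 CPM in Ctrl HFD (-2.05 ± 0.38, adjusted p = 0.00511; repeat -1.97). The 2 genes did not overlap between groups. The complement gene C1qa did not follow them (0.06, 95% interval -0.28 to 0.39; repeat 0.20). The 20 markers summed to 134 and 136 CPM in LIRKO chow replicates 1 and 2 and 301 and 268 CPM in 3 and 4. Ctrl HFD had 266 to 566 CPM, and no marker was at 0. In these bulk samples, fewer cells of a type and less RNA per cell cannot be told apart.

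Trem2 (-2.16), Clec7a (-2.04) and Gpnmb (-2.03), genes of lipid-laden or activated macrophages, fell in both comparisons, as did the prostaglandin synthase Ptgs1 (-2.68). Cx3cl1, the chemokine fractalkine, was the only gene lower in LIRKO chow among the 12 called in the repeat with the LIRKO chow pairs summed. It had 2.96, 3.32, 3.41 and 3.57 CPM in LIRKO chow, against 6.40, 7.63, 12.3, 8.60 and 11 CPM in Ctrl HFD, with no overlap (-1.47 ± 0.21, adjusted p = 0.00103; repeat -1.69).

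Markers of other cell types were also lower in part in LIRKO chow than in Ctrl HFD. Endothelial markers summed to 22.5 and 26.7 CPM in LIRKO chow replicates 1 and 2 and 229 and 196 CPM in 3 and 4. Ctrl HFD had 200 to 407 CPM. Of 18 tested, 3 were lower (16.7%, against 5.64% of all genes), with a median of -1.49. The repeat had 0 lower and a median of -0.98. Fibroblast and stellate markers summed to 1.62 and 1.7 CPM in LIRKO chow replicates 1 and 2. Replicates 3 and 4 had 25.9 and 21.1 CPM, and Ctrl HFD 16.3 to 81.7 CPM. Of 13 tested, 2 were lower (15.4%), with a median of -2.19. The repeat had 0 lower and a median of -2.41, and neither list had a call with the LIRKO chow pairs summed. Against Ctrl chow the endothelial median was 0.26 for LIRKO chow and 1.69 for Ctrl HFD. The fibroblast and stellate median was -0.25 for LIRKO chow and 1.86 for Ctrl HFD. In LIRKO chow, Kdr, an endothelial receptor, was at 2.69 and 2.92 CPM in replicates 1 and 2 and at 40.4 and 33.7 CPM in replicates 3 and 4, against 84.1, 76.6, 48.9, 58.9 and 50.3 CPM in Ctrl HFD. It did not pass (-1.68, adjusted p = 0.119; repeat -1.41). Of 34 matrix genes tested, 4 fell and 1 rose, a share of 14.7% called that is near the 10.8% of all genes tested. The matrix median was -1.42, and -1.29 in the repeat. Against Ctrl chow it was 0.11 for LIRKO chow and 1.64 for Ctrl HFD. The latent TGF-β binding protein Ltbp2 had 2.40, 2.10, 1.96 and 1.62 CPM in LIRKO chow, against 10.7, 9.45, 6.69, 7.87 and 14.5 CPM in Ctrl HFD (-2.28 ± 0.30, adjusted p = 0.000592; repeat -2.27). The part of these other cells in the falls of Id, early and matrix genes was not tested.

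Other endocrine markers overlapped. Gcg, glucagon, had 116, 104, 1480 and 1670 CPM in LIRKO chow, against 280, 972, 3720, 3970 and 355 CPM in Ctrl HFD, and did not pass (-1.14, 95% interval -3.16 to 0.88; repeat -1.69). Alpha cell markers summed to 1270 to 2910 CPM in LIRKO chow and 972 to 4950 CPM in Ctrl HFD. Gc, a vitamin D binding protein that the list counts among alpha cell markers, rose nevertheless, with 252, 264, 264 and 252 CPM in LIRKO chow, against 127, 130, 118, 165 and 123 CPM in Ctrl HFD (0.96 ± 0.13, adjusted p = 0.000725; repeat 0.92). Acinar markers summed to 84 to 407 CPM in LIRKO chow and 84.8 to 252 CPM in Ctrl HFD, and none of 21 tested was called.

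**Figure D4:**
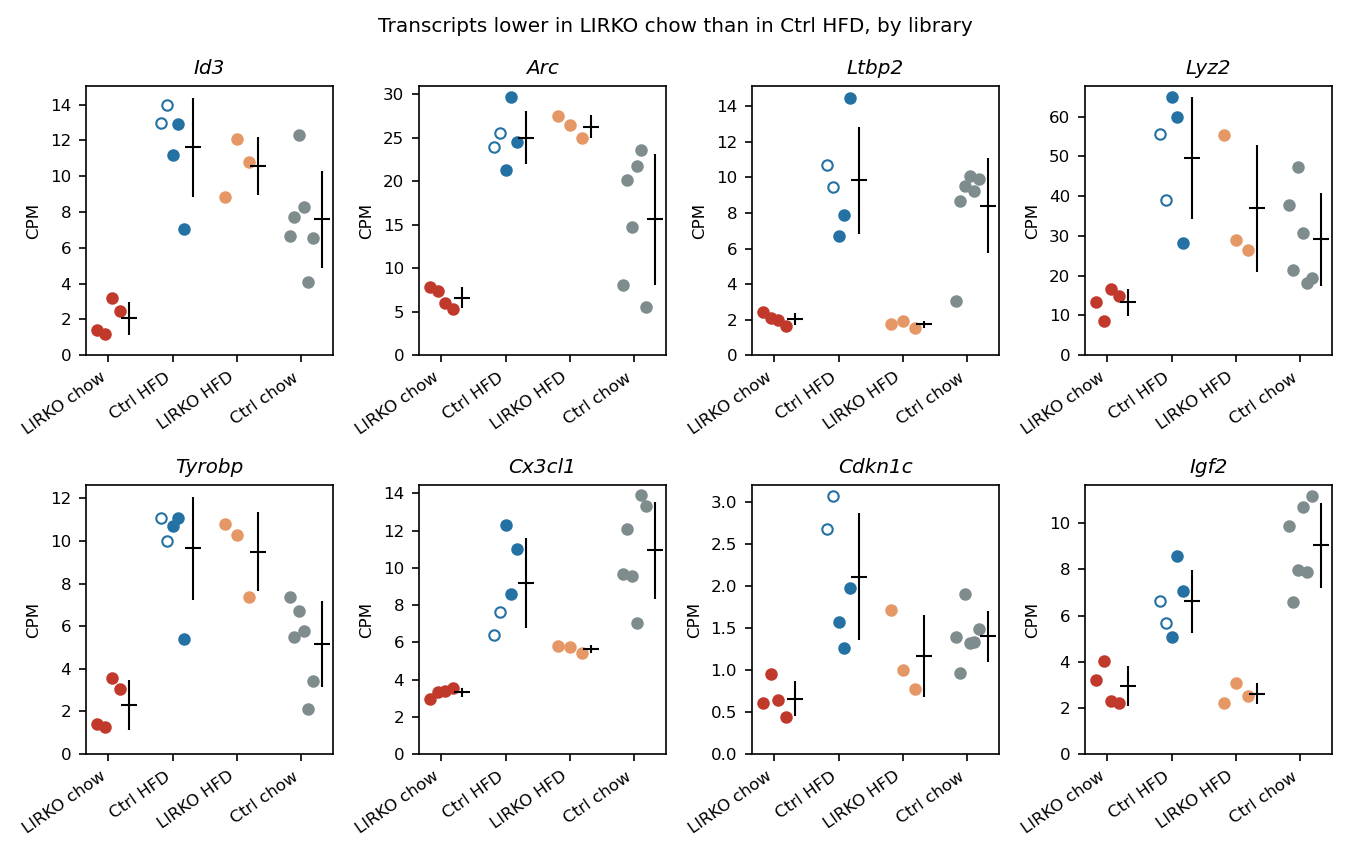
Each panel plots 1 transcript in CPM, with 1 point per library in LIRKO chow, Ctrl HFD, LIRKO HFD and Ctrl chow and the group mean ± SD beside them. Open points are Ctrl HFD replicates 1 and 2. The 4 LIRKO chow libraries lie below every Ctrl HFD library in all 8 panels, and for Ltbp2 and Igf2 the LIRKO HFD libraries are also below every Ctrl HFD library.

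The genes called here were also looked up in LIRKO HFD against Ctrl chow, a comparison that shares no library with this one and in which 1736 genes were called (9.0%), 1021 higher (5.29%) and 715 lower (3.71%). Of the 2084 genes, 276 were called there too (13.2% of the 2084 and 15.9% of the 1736), 146 in the same direction and 130 in the opposite one. Of the 559 called in both fits, 123 were called there (22.0% of the 559 and 7.09% of the 1736), 81 in the same direction and 42 in the opposite one. The deletion is on the LIRKO side of both comparisons, whereas HFD is on the Ctrl side in the first and on the LIRKO side in the second.

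C1qtnf1, a secreted relative of adiponectin, had the largest rise that went the same way in both. It had 27.8, 30.2, 31.6 and 30.5 CPM in LIRKO chow and 19.7, 19.7 and 22.1 CPM in LIRKO HFD, against 3.08, 3.45, 1.81, 4.75 and 1.82 CPM in Ctrl HFD and 0.279 to 3.79 CPM in Ctrl chow (median 0.922). Both LIRKO groups lay above both Ctrl groups, with log2 changes of 3.34 ± 0.46 (adjusted p = 0.000714) for LIRKO chow over Ctrl HFD and 3.96 (adjusted p = 4.04e-05) for LIRKO HFD over Ctrl chow. Gucy2c, an intestinal-type guanylate cyclase receptor, had 115, 125, 117 and 115 CPM in LIRKO chow and 103, 83.2 and 102 CPM in LIRKO HFD, against 34.7, 42.7, 44.6, 60.4 and 41.4 CPM in Ctrl HFD and 18.3 to 38.6 CPM in Ctrl chow (1.40 and 1.92). Fbp2 (2.65 and 3.11), Oxtr (1.20 and 1.61), Gc (0.96 and 1.75) and Derl3 (2.46 and 1.58) also rose in both. Ltbp2 (-2.28 and -2.28), Igf2 (-1.17 and -1.79), Mxra7 (-1.45 and -1.44) and Cx3cl1 (-1.47 and -0.95) fell in both.

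In the opposite direction, Igf1r rose in LIRKO chow over Ctrl HFD and fell in LIRKO HFD over Ctrl chow (1.04 and -1.98, adjusted p = 3.37e-05 for the second). Star (2.16 and -1.70), the transsulfuration enzyme Cth (2.08 and -1.52), Fh1 (1.44 and -0.87) and the G protein subunit Gng12 (1.16 and -0.86) did likewise. Nptx2, a secreted pentraxin, rose in the full comparison alone (2.86, adjusted p = 0.0215; repeat 2.33, adjusted p = 0.0947), with -4.93 in LIRKO HFD over Ctrl chow. Egr2 (-1.96 and 1.72), the myeloid factor Cebpa (-1.47 and 1.06) and the guanine exchange factor Cyth4 (-1.56 and 1.05) fell in the first and rose in the second. By these signs the group on HFD was the lower one in both comparisons for Igf1r, Star, Cth, Fh1, Gng12 and Nptx2, and the higher one for Egr2, Cebpa and Cyth4.

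**Figure D5:**
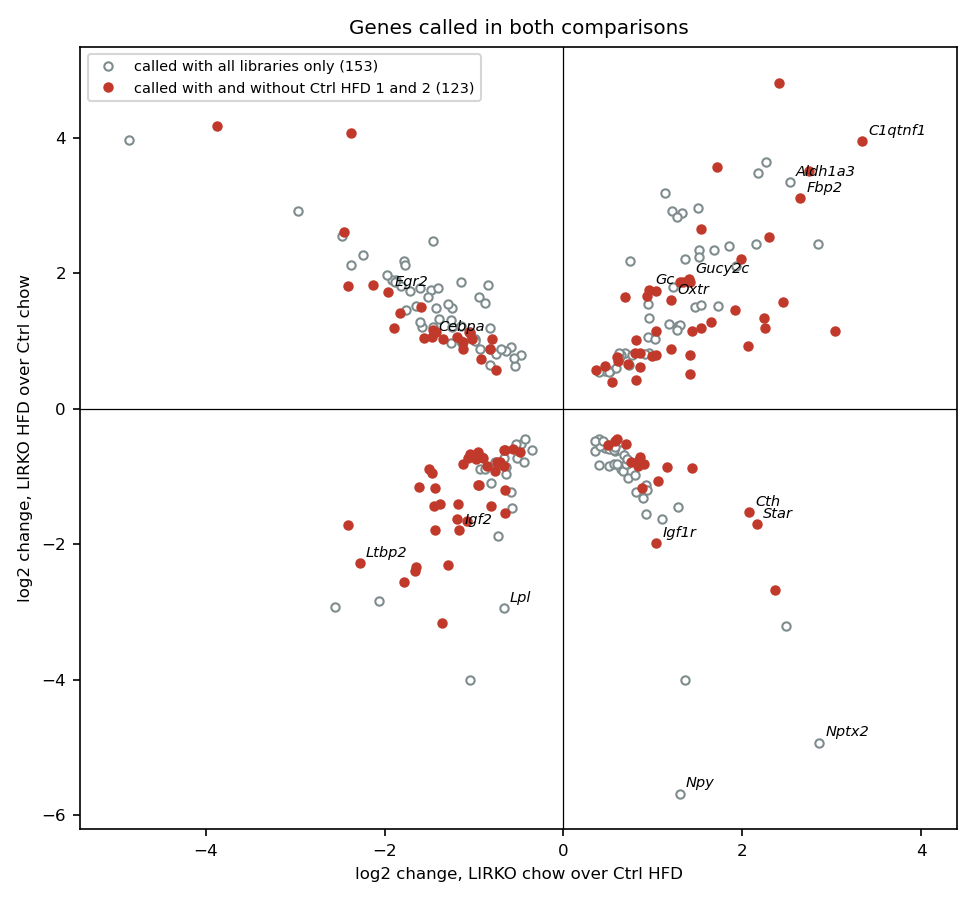
Each point is 1 of the 276 genes called in both comparisons, with the log2 change of LIRKO chow over Ctrl HFD on the x axis and of LIRKO HFD over Ctrl chow on the y axis. Red points are the 123 genes called also in the repeat. C1qtnf1 lies high in the upper right, where 85 of the 276 rose in both, and Igf1r, Cth and Star in the lower right, where 54 rose in the first and fell in the second.

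Of the 160 genes for which all alternatives of the analysis were followed one by one, 10 kept their call and direction in all 21 alternatives. Etv5, Nucb2, Stc2 and Syt5 have been described. Slco1a6, an organic anion transporter, had 104, 108, 132 and 131 CPM in LIRKO chow, against 45.3, 56.4, 53.7, 61.6 and 57.7 CPM in Ctrl HFD (1.11 ± 0.12, adjusted p = 8.52e-05; repeat 1.03). Dclk1, a doublecortin-like kinase, had 7.89, 8.63, 7.43 and 7.52 CPM in LIRKO chow, against 0.894, 2.42, 1.48, 2.58 and 0.924 CPM in Ctrl HFD (2.24 ± 0.30, adjusted p = 0.000592; repeat 2.24). Csn3, which encodes kappa-casein, had 1.93, 2.27, 3.69 and 3.05 CPM in LIRKO chow, against 0.248, 0.559, 0.592, 0.315 and 0.423 CPM in Ctrl HFD (2.66 ± 0.33, adjusted p = 0.000416; repeat 2.6). None of these showed overlap between the groups. The others were Dhrs7 (1.32), Ttc39c (1.41) and Cx3cl1.

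Transcripts outside the lists were also widely separated. Ttyh1, a membrane protein of the tweety family, had 89.0, 91.3, 81.7 and 80.8 CPM in LIRKO chow, against 13.6, 16.7, 17.1, 26.2 and 13.8 CPM in Ctrl HFD (2.29 ± 0.29, adjusted p = 0.000416; repeat 2.16). Slc39a10, a zinc importer, had 32.9, 33.6, 34.1 and 34.1 CPM in LIRKO chow, against 6.55, 7.17, 11.8, 13.0 and 8.21 CPM in Ctrl HFD (1.84 ± 0.24, adjusted p = 0.00058; repeat 1.60). Gabbr2, a subunit of the GABA-B receptor, had 190, 198, 190 and 204 CPM in LIRKO chow, against 59.8, 66.0, 110, 104 and 89.7 CPM in Ctrl HFD (1.19 ± 0.19, adjusted p = 0.00176; repeat 0.94). In all 3 the LIRKO chow libraries were nearly equal to each other and above every Ctrl HFD library.

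Pycr1, an enzyme of proline synthesis, had 85.1, 90.1, 76.4 and 73.6 CPM in LIRKO chow, against 36.1, 40.3, 48.0, 43.1 and 46.5 CPM in Ctrl HFD (0.93 ± 0.13, adjusted p = 0.00082; repeat 0.82). Uchl1, a deubiquitinase of neurons and endocrine cells, had 9.60, 11.7, 10.2 and 9.74 CPM in LIRKO chow, against 21.8, 25.6, 20.5, 20.9 and 18.4 CPM in Ctrl HFD. It fell without overlap (-1.05 ± 0.15, adjusted p = 0.00103; repeat -0.96).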

How the data were processed

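The deposited table holds raw counts of reads per Ensembl gene, 1 column per library. Per the submitters' processing notes, STAR, featureCounts and GRCm38 were used; versions, annotation release and strand setting go unstated in the sources here. Libraries were directional, per the labels' protocols. GENCODE M21 gave a symbol for 52489 of the 53090 gene IDs, and the others held at most 0.0176% of a library's counts. Replicate numbers follow the order of the samples.

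Tests used edgeR 4.0.16 under R 4.3.3 (filterByExpr, TMM scaling, glmQLFit and glmQLFTest, 1 coefficient per group over all 18 libraries, Benjamini-Hochberg adjustment over all genes tested, two-sided). CPM are counts per 1000000 scaled reads. The SE is the log2 change over the root of the F statistic, and 95% intervals use the test's degrees of freedom. No batch is labelled. Alternatives covered scaling, filter, tool (DESeq2 1.42.0, limma 3.58.1 voom with quality weights) and libraries. Each of the 2 fits without a LIRKO chow pair was added after its values were seen.

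Members and lists (28 of processes, 12 of cell type markers) were chosen with earlier results of these data known. Named genes were the 12 largest rises and falls called in both comparisons among genes with a mean log2 CPM of at least 2, up to 3 called members per list, 3 per marker list, 26 fixed genes and the 5 largest changes shared with LIRKO HFD against Ctrl chow in each direction; the text leaves many out. Further genes in the text, the grouping by overlap with the other 14 libraries, and the 7 motifs searched in 5 lists were chosen after values were seen. Aldoa matched 2 IDs and was left out.

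The test was checked on simulated counts.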

Additional observations from a re-analysis of the deposited data

Results flagged for a closer look

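Of 489 sets of values from 1 group, 32 held a library with a wide gap to the rest of its group, where chance alone gives about 1 in 20. No LIRKO chow library was flagged, so all 32 lie in sets of Ctrl HFD or Ctrl chow. Their share there is larger than over all 489 sets, and the number over all sets is not compared with that rate. The sets also reuse the same libraries and are not independent. Most entries in Ctrl HFD fall on replicate 4. Whether chance accounts for the entries was not tested. In Ctrl HFD, replicate 4 stood high for Dusp4 (27.3 CPM, others 7.45 to 12.8), Tpx2 (2.55 CPM, others 0.419 to 0.924), Nuf2 (1.13 CPM, others 0.186 to 0.449), Mki67 (9.79 CPM, others 2.96 to 3.77), Top2a (9.04 CPM, others 1.44 to 2.53), Cdk1 (1.76 CPM, others 0.296 to 0.396), Arrdc4 (28.8 CPM, others 9.73 to 15.1), Ttyh1 (26.2 CPM, others 13.6 to 17.1), Oxtr (19.2 CPM, others 9.68 to 12.1), Plod2 (9.73 CPM, others 1.79 to 3.94), Gc (165 CPM, others 118 to 130), and low for Lpl (113 CPM, others 189 to 215). Its Cdk1 value lies in the range of the LIRKO chow libraries. Elsewhere in Ctrl HFD, Thrsp was high in replicate 2 (2.33 CPM, others 0.888 to 1.1) and Tyrobp was low in replicate 5 (5.41 CPM, others 10 to 11.1).

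In Ctrl chow, which enters the fit but not the contrast, replicate 1 stood high for Hsp90b1 (2360 CPM, others 1220 to 1640), Bnip3 (354 CPM, others 62.6 to 167), Crem (56.5 CPM, others 21.9 to 32.5), Plod2 (6.95 CPM, others 2.12 to 3.19), Dclk1 (2.89 CPM, others 1.42 to 1.74), Shc4 (5.16 CPM, others 3.04 to 3.78), and replicate 1 stood low for Ltbp2 (3.05 CPM, others 8.68 to 10.1). In that group, replicate 2 stood high for Stc2 (2.11 CPM, others 1.12 to 1.39), and replicate 3 stood high for Aldh1a3 (21.1 CPM, others 1.14 to 2.19), C1qtnf1 (3.79 CPM, others 0.279 to 1.06), Smad9 (4.82 CPM, others 1.47 to 1.92), Gpnmb (38.8 CPM, others 13.5 to 19.6), Kdr (70.6 CPM, others 7.39 to 22), Gfra1 (6.21 CPM, others 1.08 to 2.97). In that group, replicate 4 stood high for Hes1 (11.7 CPM, others 7.01 to 8.52), and replicate 4 stood low for Spred2 (8.14 CPM, others 13.2 to 16.1), Scg2 (4020 CPM, others 6380 to 6980). In that group, replicate 6 stood high for Chac1 (108 CPM, others 84.2 to 89).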

How the results depend on the processing

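The count of genes called, 2084, depended on the libraries and the tool: 883 with only the 9 libraries compared, 649 without Ctrl HFD replicates 1 and 2, 60 with LIRKO chow pairs summed, 12 with both of these, 1158 with no filter, 4189 with DESeq2, and 577 to 4203 when 1 library was left out. Without LIRKO chow replicates 1 and 2 as a pair it was 109, and without 3 and 4 it was 897. It was 2201 with RLE scaling and 2716 with upper quartile scaling, where 34.2% of calls were higher, against 47.8%, and the median of all genes was -0.17. The 649 became 12 with pairs summed. For LIRKO HFD against Ctrl chow, 1736 became 3140 without Ctrl HFD replicates 1 and 2 and 2645 with DESeq2.

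Of the 160 genes followed singly, all 136 that were called kept their sign in every alternative where they were tested. Of 24 that were not called, 10 changed sign. Without Ctrl HFD replicates 1 and 2, Glp1r was at -0.32, Insr at -0.05 and Malat1 at 0.07, and with pairs summed too at -0.33, -0.05 and 0.07. With voom, Glp1r was at -0.02 and Sst at 0.25. With upper quartile scaling, Ccnd2 was at -0.11 and C1qa at -0.06. With only 9 libraries Ccnd2 was at 0. Sst was at 0.01 with pairs summed and 0.05 with no filter. Without LIRKO chow 1 and 2, Mafa was at -0.16, Ccnd2 at 0, Txnip at 0.06, Sst at 0.09 and Pecam1 at 0.06. Without 3 and 4, Slc2a2 was at 0.32 and C1qa at -0.11. Leaving out 1 library gave -0.28 to 0.12 for Slc2a2, -0.06 to 0.12 for Ccnd2, -0.03 to 0.13 for C1qa, -0.16 to 0.20 for Sst and -0.24 to 0.01 for Txnip. The causes were not tested.

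No paired analysis was possible because the labels carry no replicate numbers. The shallowest library, with 19490235 counts, sets the precision at low CPM.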
